A study of Mus musculus with 8 samples.

Results

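The interferon-stimulated antiviral genes described here are 46 genes chosen by name: the type I interferon Ifnb1 and its receptor subunits, interferon regulatory factors and Stat2, sensors of viral nucleic acid, and effector families such as Ifit, Oas, Mx and Ifitm. The array carried 36085 gene names, of which 24440 were tested. Of the 46 genes 45 were tested, and 58 of their 61 probes passed the background filter. Ifnb1 was left out because its probe did not stand well above background on any of the arrays.

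Lungs of Ggps1 knockout mice, with a deletion restricted to the lung, were set against lungs of wild-type mice, 4 samples in each group. Every mouse was of strain C57BL/6 and had received lipopolysaccharide (LPS), the bacterial cell-wall component sensed by TLR4, 12 h earlier; no mice without LPS are included, so each value is a level under LPS. Ggps1 encodes the enzyme that makes geranylgeranyl diphosphate, a lipid attached to small GTPases. Total RNA of whole lung was hybridised to single-colour Agilent arrays, 1 per sample. The sources used here do not state the age or sex of the mice, the dose or route of LPS, or what drives the deletion. All arrays lay on 1 slide with the genotypes in separate rows, so slide position and genotype cannot be told apart.

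Type I interferons signal through the receptor formed by IFNAR1 and IFNAR2 to a complex that includes STAT2 and IRF9. This complex binds the interferon-stimulated response element, a sequence in the promoters of the genes called interferon-stimulated. In cells that sense LPS, TLR4 reaches IRF3 through the adaptor TRIF, and the interferon-β that follows switches on the same genes in neighbouring cells. Their products block viral entry, degrade or sequester viral RNA, or adjust the response itself.

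The promoter stretches printed here show the response element in genes with large and with small differences between the groups. They come from Oas1a and Oas3, whose differences were -0.60 or lower, and from Isg15, Ifit1, Ifit3 and Bst2, with differences between -0.22 and 0.09. Oas1g is printed as well, but it was well above background on wild-type arrays only, so only a bound holds for its difference. Each is 100 bases from the region upstream of the transcription start, 5′ to 3′ on the gene's strand, from RefSeq on build GRCm38.p6. Capitals mark the core of the response element, GAAA and GAAA with 2 bases of any kind between them, on either strand, and overlapping matches run together.
Oas1a, chr5:120907526-120907625, minus strand: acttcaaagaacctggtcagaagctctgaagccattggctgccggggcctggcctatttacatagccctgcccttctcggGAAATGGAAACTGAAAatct
Oas1g, chr5:120887614-120887713, minus strand: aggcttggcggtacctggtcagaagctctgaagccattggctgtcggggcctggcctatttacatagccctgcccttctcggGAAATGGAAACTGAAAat
Oas3, chr5:120777660-120777759, minus strand: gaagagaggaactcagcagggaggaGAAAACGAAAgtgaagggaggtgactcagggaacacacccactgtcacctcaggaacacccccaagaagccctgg
Isg15, chr4:156200822-156200921, minus strand: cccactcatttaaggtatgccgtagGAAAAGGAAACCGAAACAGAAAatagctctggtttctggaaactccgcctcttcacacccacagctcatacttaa
Ifit1, chr19:34640760-34640859, plus strand: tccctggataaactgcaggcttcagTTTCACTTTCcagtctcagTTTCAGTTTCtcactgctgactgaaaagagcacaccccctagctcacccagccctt
Ifit3, chr19:34583348-34583447, plus strand: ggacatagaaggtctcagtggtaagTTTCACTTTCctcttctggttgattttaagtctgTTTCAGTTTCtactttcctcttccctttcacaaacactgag
Bst2, chr8:71537528-71537627, minus strand: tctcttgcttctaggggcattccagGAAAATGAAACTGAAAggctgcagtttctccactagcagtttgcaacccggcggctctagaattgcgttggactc
Of the 46 genes, 37 matched a RefSeq promoter window of 250 bases before to 50 after the start. The core stood on either strand in 14 of these 37 (37.8%), against 1079 of 27025 genes with a window (3.99%). TTCNNNGAA, the core of the gamma-activated site, stood in 13 of 37 (35.1%), against 9.55% of all genes with a window. The first match began at -20 in Oas1a and at -18 in Oas1g, counted from the start, and each of these genes held 2 overlapping matches. Oas3 held 1 match, beginning at -75. The core was not found in the windows of Oasl1, Oasl2, Irf5 or Ifitm1. No window was matched for Oas2, Mx1, Mx2, Parp9, Parp14, Dhx58, Zbp1, Usp18 and Rtp4. A match describes letters, not a bound site.

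Ggps1 mRNA differed little. Its brightest probe read 1.32, 1.24, 1.22 and 1.24 in knockout samples 1 to 4, against 1.26, 1.34, 1.26 and 1.40 in wild-type samples 1 to 4, a difference of -0.06 ± 0.068 (SE; limma, adjusted p = 0.608). Of its 3 probes, another averaged -2.18 in knockout and -2.07 in wild-type samples, and the third -0.31 in knockout and -0.51 in wild-type samples. All levels are log2 processed signal minus the array's own 75th percentile, and all differences are knockout minus wild-type on that log2 scale. The sources used here do not state the deleted exons, so these probes do not check the labels. The 7 lung markers examined, Sftpc, Sftpa1, Sftpb, Scgb1a1, Ager, Cldn18 and Cldn5, were well above background on all 8 arrays.

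No interferon-stimulated gene passed the test across the array, and their values were not alike. The OAS family is named for the enzymes that make the 2′-5′ oligoadenylates that activate RNase L. Its 5 genes in the set that were measured in both groups were all lower in the knockout lungs, Oas2 by 2.03-fold. Oas1g was well above background only on wild-type arrays, so it passed the background filter through that group alone and only a bound holds for it. Irf5 was 1.73-fold lower and Ifitm1 1.28-fold lower, each without overlap between the groups. Commonly used indicators of an interferon response, among them Isg15, Ifit1, Ifit3, Mx1 and Rsad2, differed by less than the spread between samples. In whole lung, fewer cells of a type and less RNA per cell cannot be told apart.

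Of the 45 genes, 0 passed at an adjusted p under 0.05 (limma, Benjamini-Hochberg over 24440 genes), where 0.0614% of all genes did, 0.0286% lower and 0.0327% higher. With no adjustment of p, 9 genes (20.0%) were lower at 0.05 and 0 were higher. Among all genes 13.5% were lower at that level and 10.1% higher, 23.6% in all. For 7 genes (15.6%) all knockout values lay below all wild-type values, where 9.26% of all genes did so: Ifnar2, Irf3, Irf5, Oas1g, Oas2, Oas3 and Ifitm1. Oas1g was tested only because its wild-type signal was above background; over the 44 genes measured in both groups, 8 were lower at an unadjusted p under 0.05 and 6 did not overlap. In the opposite direction it was 0 genes, where 6.08% of all genes did. Genes without overlap in either direction made up 15.6% of the 45 and 15.3% of all genes. By sign alone, 36 of 45 (80.0%) were lower, with a median difference of -0.17, against 54.4% of all genes and a median of -0.03.

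These counts moved with single samples. Without knockout sample 4, 26 of 45 genes were lower, the median was -0.04, and 5 genes were lower at an unadjusted p under 0.05. Without wild-type sample 1, 43 of 45 were lower, the median was -0.29, and 12 genes were lower at an unadjusted p under 0.05. The median over all genes was -0.02 in each of these fits. With all samples 54.4% of all genes were lower, and no such share is given for the fits without 1 sample.

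**Figure D1:**
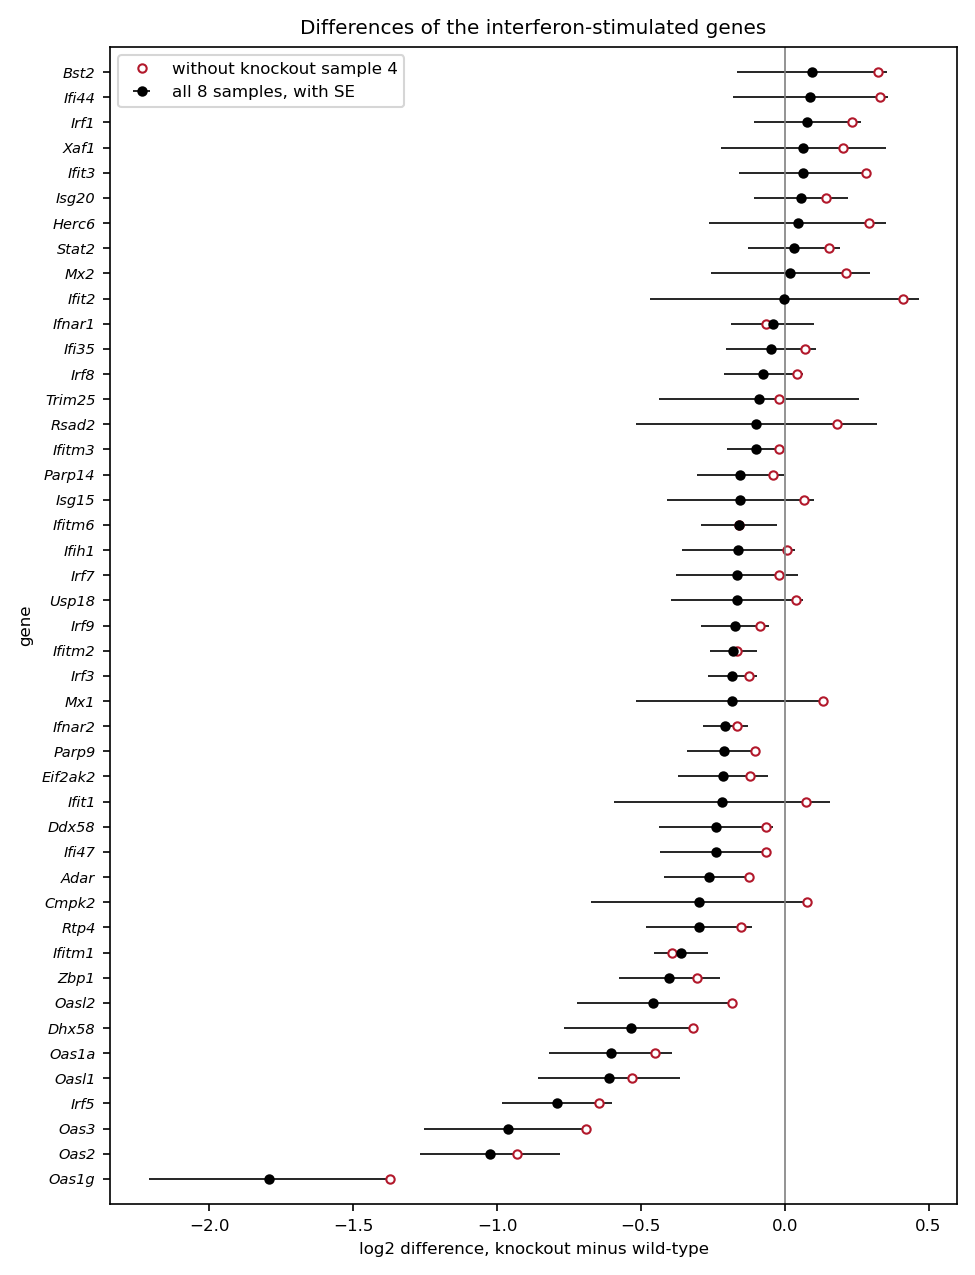
Log2 difference, knockout minus wild-type, on the horizontal axis for each of the 45 genes down the page. Black points with SE bars use all 8 samples and open points leave out knockout sample 4; Oas2 (-1.02), Oas3 (-0.96) and Irf5 (-0.79) lie farthest left among genes measured in both groups, Oas1g is drawn at a value where only a bound holds, and most open points lie to the right of the black ones.

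Across samples, most of the genes were low in the same samples. Knockout sample 4 had the lowest value of its group for 38 of 45 genes, where it was the lowest for 27.9% of all genes tested. Wild-type sample 1 had the lowest value of its group for 39 of 45, where it was the lowest for 25.2% of all genes. Over all 8 samples, knockout sample 4 was the lowest for 35 of 45 genes, against 19.2% of all genes.

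As the median deviation of the 45 genes from their own means, knockout samples 1 to 4 stood at 0.14, -0.06, 0.05 and -0.57, against -0.20, 0.24, 0.12 and 0.24 in wild-type samples 1 to 4. Over all genes tested the same quantity ran from -0.03 to 0.01 in knockout and from -0.02 to 0.03 in wild-type samples. Each array was centred on a percentile of its own signal, which by itself keeps these all-gene values close together. They therefore cannot show whether the genes at large shifted. The low values of knockout sample 4 and wild-type sample 1 were low relative to the other genes on the same array. The median SD of the interferon-stimulated genes was 0.35 in knockout and 0.26 in wild-type samples, against 0.19 in knockout and 0.17 in wild-type samples for all genes.

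**Figure D2:**
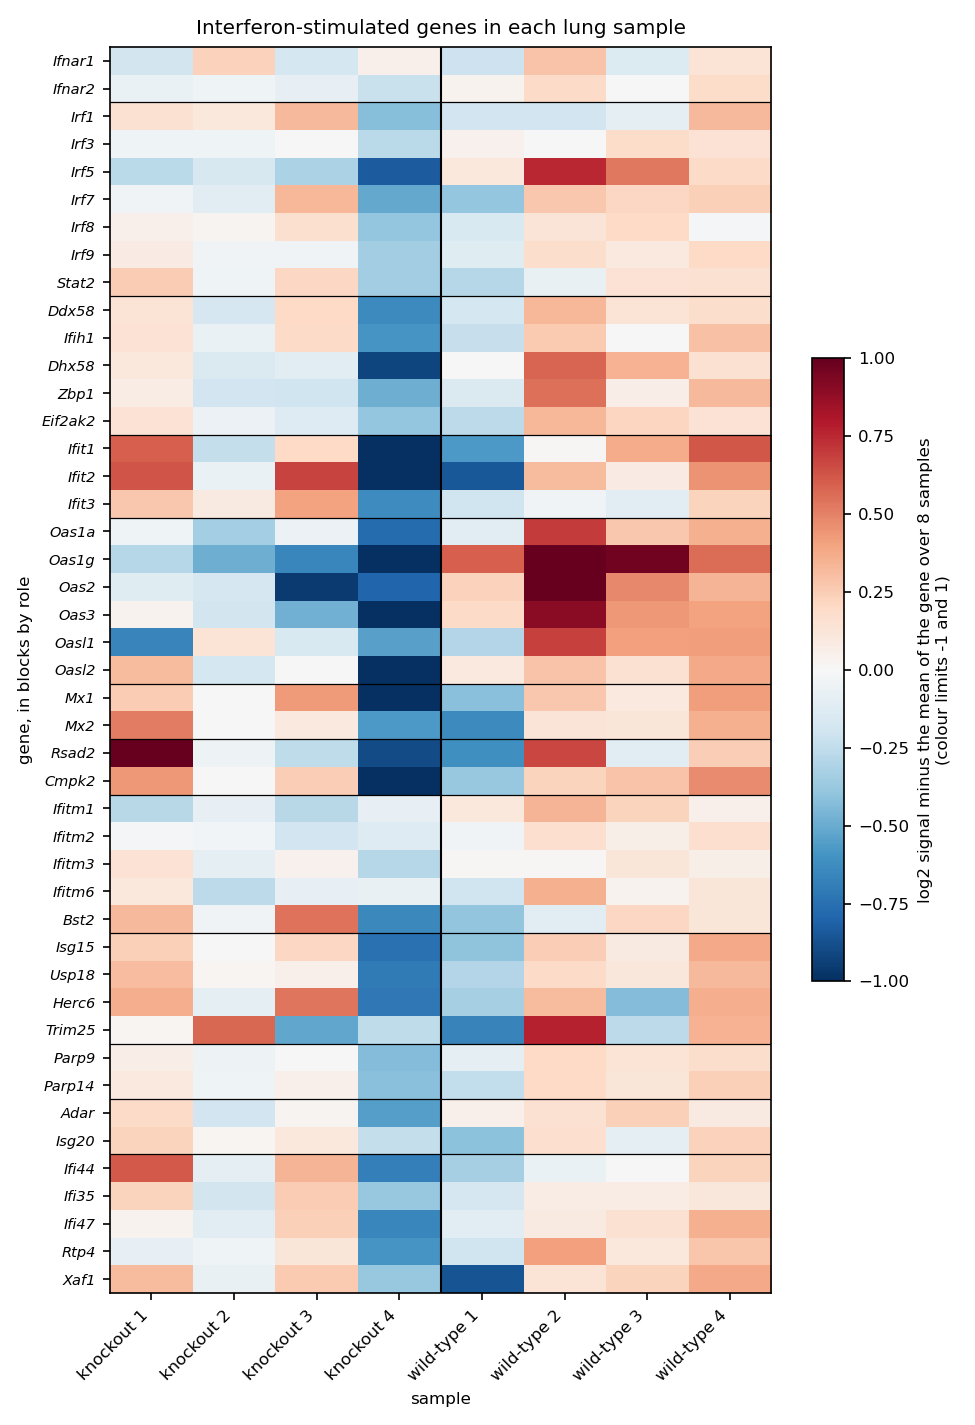
Each row is a gene, in blocks by role, and each column a sample, with the 4 knockout samples left of the line and the 4 wild-type samples right of it; colour is log2 signal minus the mean of the gene over the 8 samples, limited to -1 and 1. Knockout sample 4 is blue (below the mean) in nearly every row and wild-type sample 1 in most, while Oas1g, Oas2 and Irf5 are blue in all knockout and red in all wild-type samples.

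Interferon-β, the ligand in the set, could not be measured. The Ifnb1 probe was not well above background on any of the 8 arrays, so the data give no level for interferon-β mRNA at 12 h. Of the receptor, Ifnar1 read 2.76, 3.17, 2.77 and 2.99 on its brightest probe in knockout samples 1 to 4, against 2.74, 3.23, 2.81 and 3.08 in wild-type samples 1 to 4, with overlapping groups and a difference of -0.04 ± 0.14 (SE). Its dimmer probes differed by -0.26 and -0.22, again with overlap, and the mean of its probes differed by -0.18. Ifnar2, the other receptor subunit, read 3.96, 3.99, 3.95 and 3.81 in knockout samples 1 to 4, against 4.07, 4.22, 4.04 and 4.22 in wild-type samples 1 to 4. Its groups did not overlap, by a narrow gap, and the difference of -0.21 ± 0.079 (SE) did not pass (limma, adjusted p = 0.173).

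Among the transcription factors, Irf5 had the largest difference. IRF5 acts downstream of Toll-like receptors in macrophages and B cells and drives inflammatory cytokines. Its probe, at chr6:29486901-29486960 on build mm9, read 2.76, 2.87, 2.71 and 2.20 in knockout samples 1 to 4, against 3.14, 3.78, 3.56 and 3.22 in wild-type samples 1 to 4. Every knockout value lay below every wild-type value, with a difference of -0.79 ± 0.19 (SE) that did not pass (limma, adjusted p = 0.0788). Over 16 alternative settings the difference ran from -0.89 to -0.65, with adjusted p from 0.047 to 0.172 (limma). The lowest came with no filter on dim probes, where the difference was again -0.79 and more genes entered the adjustment. Irf3, the factor that TRIF activates, read 5.07, 5.07, 5.11 and 4.85 in knockout samples 1 to 4, against 5.16, 5.11, 5.30 and 5.26 in wild-type samples 1 to 4. Its groups were adjacent but separate, and the difference was -0.18 ± 0.086 (SE; limma, adjusted p = 0.242).

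The factors that carry the interferon signal itself overlapped between the groups. Stat2 read 4.13, 3.83, 4.08 and 3.53 in knockout samples 1 to 4, against 3.59, 3.80, 4.02 and 4.03 in wild-type samples 1 to 4, a difference of 0.03 ± 0.16 (SE). Irf9, its DNA-binding partner, read 4.28, 4.16, 4.16 and 3.85 in knockout samples 1 to 4, against 4.08, 4.37, 4.30 and 4.40 in wild-type samples 1 to 4. Knockout sample 4 was the lowest for both genes, and the Irf9 difference was -0.17 ± 0.12 (SE). Irf7, the factor that amplifies interferon-α production, read 2.93, 2.85, 3.30 and 2.45 in knockout samples 1 to 4, against 2.58, 3.24, 3.17 and 3.20 in wild-type samples 1 to 4, a difference of -0.17 ± 0.21 (SE). Irf1 and Irf8, factors of interferon-γ responses and of myeloid cells, differed by 0.08 ± 0.19 and -0.07 ± 0.14 (SE) in the order named, again with overlap. Without knockout sample 4 the Irf8 difference was 0.04, and with median centring that of Stat2 was -0.02.

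Of the sensors, 5 of 5 were lower, where 54.4% of all genes were, and 0 passed. Their median was -0.24, and -0.12 without knockout sample 4. Dhx58, which encodes LGP2, a regulator of RIG-I and MDA5, had the largest difference of the 5. It read 1.45, 1.20, 1.23 and 0.42 in knockout samples 1 to 4, against 1.34, 1.93, 1.69 and 1.49 in wild-type samples 1 to 4. Knockout sample 1 lay above wild-type sample 1, so the groups overlapped, and the difference of -0.54 ± 0.23 (SE; limma, adjusted p = 0.21) was -0.32 without knockout sample 4.

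The RNA sensors of the cytoplasm overlapped more broadly. Ddx58, which encodes RIG-I, read 3.85, 3.54, 3.91 and 3.08 in knockout samples 1 to 4, against 3.53, 4.05, 3.85 and 3.89 in wild-type samples 1 to 4, a difference of -0.24 ± 0.20 (SE). Ifih1, which encodes MDA5, read 3.13, 2.92, 3.18 and 2.39 in knockout samples 1 to 4, against 2.75, 3.25, 2.99 and 3.27 in wild-type samples 1 to 4, a difference of -0.16 ± 0.20 (SE). Knockout sample 4 was the lowest of all 8 for both. Eif2ak2, the kinase PKR that halts translation on double-stranded RNA, read 1.30, 1.10, 1.03 and 0.77 in knockout samples 1 to 4, against 0.90, 1.49, 1.37 and 1.30 in wild-type samples 1 to 4, a difference of -0.21 ± 0.16 (SE).

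Zbp1, a sensor of Z-form nucleic acid that can trigger necroptosis, gave different sizes by probe. Its brighter probe read 3.69, 3.43, 3.42 and 3.13 in knockout samples 1 to 4, against 3.47, 4.17, 3.68 and 3.94 in wild-type samples 1 to 4, a difference of -0.40 ± 0.18 (SE; limma, adjusted p = 0.215). The other probe read -0.49, -0.27, 1.09 and -1.54 in knockout samples 1 to 4, against 0.77, 1.89, 1.61 and 1.59 in wild-type samples 1 to 4, a difference of -1.76 (exact two-sided permutation p = 0.0571). Both probes were well above background on all arrays and differed in the same direction, with overlap between the groups on each.

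Of the OAS family, 6 of 6 among the 46 genes were lower, Oas1g only as a bound, where 54.4% of all genes were lower. Over the 5 measured in both groups the median difference was -0.61, and -0.53 without knockout sample 4. At an unadjusted p under 0.05, 4 of these 5 were lower, where 13.5% of all genes were, and 0 passed the adjusted test (limma). Oas2 read 3.65, 3.61, 2.81 and 2.98 in knockout samples 1 to 4, against 4.00, 4.77, 4.25 and 4.12 in wild-type samples 1 to 4. The groups were apart, knockout samples 3 and 4 being the lowest, with a difference of -1.02 ± 0.24 (SE; limma, adjusted p = 0.0778). Oas3 read 0.81, 0.60, 0.30 and -0.52 in knockout samples 1 to 4, against 0.97, 1.68, 1.21 and 1.18 in wild-type samples 1 to 4. Its groups were also apart, knockout sample 4 was the lowest, and the difference was -0.96 ± 0.29 (SE; limma, adjusted p = 0.112).

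Oas1a, an OAS1 gene with enzyme activity in the mouse, was measured by 2 probes. The brighter one read 5.50, 5.21, 5.49 and 4.78 in knockout samples 1 to 4, against 5.43, 6.25, 5.81 and 5.90 in wild-type samples 1 to 4, a difference of -0.60 ± 0.21 (SE; limma, adjusted p = 0.151). Wild-type sample 1 alone of the wild-type samples lay within the knockout range. The other probe read 3.14, 2.92, 2.96 and 2.29 in knockout samples 1 to 4, against 3.36, 4.15, 3.76 and 3.65 in wild-type samples 1 to 4. There the groups did not overlap and the difference was -0.90 (exact two-sided permutation p = 0.0286, the smallest that 4 against 4 allows).

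Oas1g was near the limit of the array. Its probe read -5.37, -5.57, -5.74 and -7.24 in knockout samples 1 to 4, against -4.49, -3.62, -4.12 and -4.53 in wild-type samples 1 to 4, and it was well above background on all 4 wild-type arrays and on none of the 4 knockout arrays. That gives only a bound: it was at least 2.56-fold lower in the knockout samples. Its adjusted p of 0.0759 (limma) is no support for that, since the gene entered the test only through its wild-type arrays. With normexp background correction its difference was -0.33, smaller than that bound. A second Oas1g probe did not stand well above background on any of the arrays. The mouse Oas1 genes are related copies, and whether the signal at 1 includes others was not tested. The 4 related genes outside the 46, named here after their values were seen, differed by 0.10 ± 0.065 (Oas1b), -0.16 ± 0.091 (Oas1c), -0.27 ± 0.20 (Oas1d) and -0.74 ± 0.21 (Oas1f; SE). All knockout values lay above all wild-type values for Oas1b and below them for Oas1f, and the groups of Oas1c and Oas1d overlapped.

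Of the OAS-like genes, Oasl1, which in the mouse restrains translation of Irf7, read 3.72, 4.52, 4.23 and 3.84 in knockout samples 1 to 4, against 4.09, 5.06, 4.79 and 4.80 in wild-type samples 1 to 4. Its groups overlapped at wild-type sample 1, with a difference of -0.61 ± 0.25 (SE; limma, adjusted p = 0.189). Oasl2 differed by -0.46 ± 0.27 (SE), and by -0.18 without knockout sample 4. All 6 probes used for the family lie on chromosome 5, those of Oas1a, Oas1g, Oas2 and Oas3 within chr5:121180343-121346794 on mm9.

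**Figure D3:**
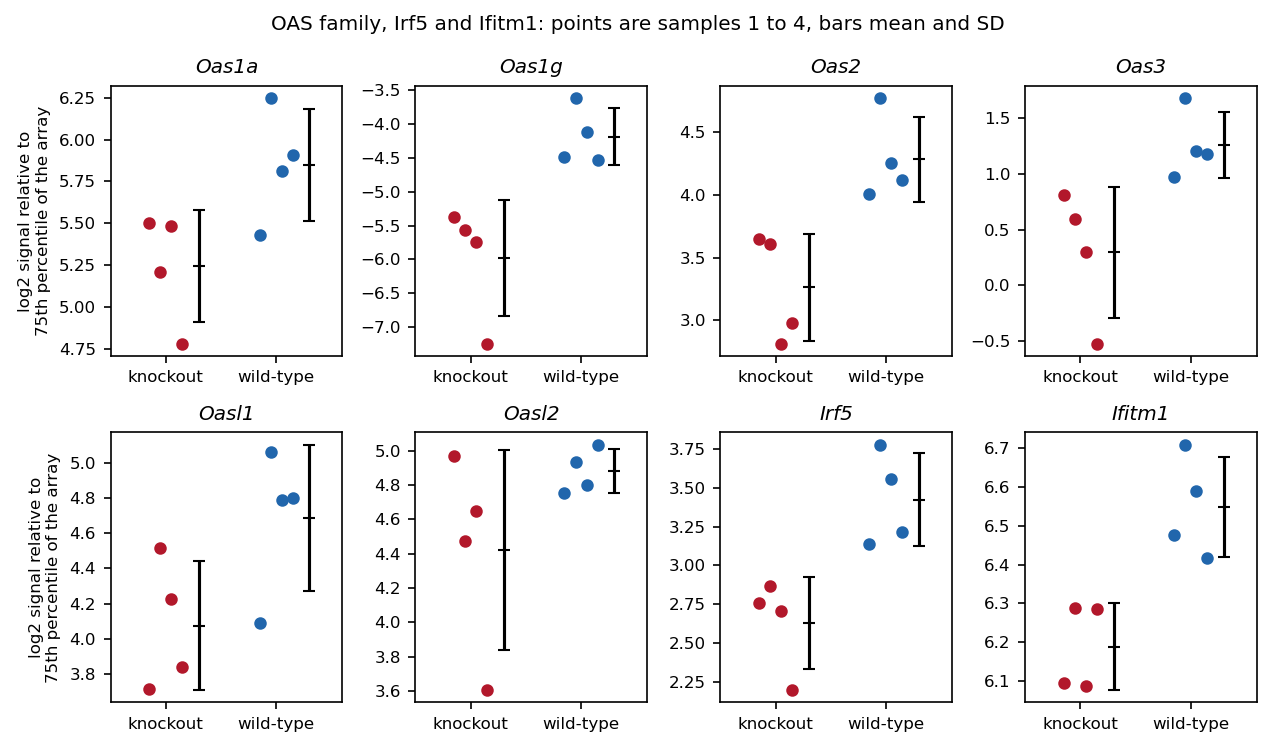
Log2 signal, with the array's 75th percentile at 0, on the vertical axis for the 6 OAS family genes, Irf5 and Ifitm1; points are the 4 knockout samples (red, left) and the 4 wild-type samples (blue, right), and bars are mean and SD. Knockout and wild-type points are apart for Oas1g, Oas2, Oas3, Irf5 and Ifitm1, and the lowest knockout point is sample 4 for Oas1a, Oas1g, Oas3, Oasl2 and Irf5.

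Levels of cell type markers are set beside these values; in no marker list did a gene pass the adjusted test (limma). Of 15 monocyte and interstitial macrophage markers tested, 15 were lower in the knockout lungs, by a median of -0.67, where 54.4% of all genes were lower. Without overlap it was 9 of them, where 9.26% of all genes had every knockout value below every wild-type value. Their mean level ranged from 2.44 to 3.01 in knockout and from 3.17 to 3.54 in wild-type samples. Lymphocyte markers were lower in 10 of 10 cases, their mean level ranging from -1.04 to -0.22 in knockout and from -0.17 to 0.04 in wild-type samples. Neutrophil markers were lower in 6 of 9 cases, with ranges of 3.90 to 4.42 in knockout and 4.30 to 4.89 in wild-type samples. These ranges hold Ltf, which ran from 1.54 to 6.89 in knockout samples. Every knockout value lay below every wild-type value for 3 of the 9 neutrophil and 1 of the 10 lymphocyte markers, where 9.26% of all genes did so. Plasmacytoid dendritic cells are a main source of interferon-α. Their markers were lower in 2 of 7 cases, with ranges of 1.84 to 2.30 in knockout and 1.54 to 2.20 in wild-type samples. Within the groups, Cox6a2 of this list was lowest in knockout sample 3 (2.28) and wild-type sample 1 (1.48). It was highest in knockout sample 4 (4.85) and wild-type sample 2 (4.60). The cardiac muscle marker Myl7 was lowest and highest in the same samples, so these ranges hold a gene that varied like a cardiac marker. Conventional dendritic cell markers were lower in 5 of 7 cases, with ranges of -2.33 to -2.0 in knockout and -2.21 to -1.66 in wild-type samples. Cardiac muscle markers were higher in 11 of 11 cases, with ranges of 1.43 to 4.55 in knockout and -0.25 to 4.23 in wild-type samples. Of the markers listed, Ly6c2, Ly6g, Runx2, Xcr1 and Pln were not tested. The part of these cells in the differences of the OAS genes, Irf5 and the others was not tested.

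The Ifit genes, whose proteins bind foreign RNA and block its translation, differed little in mean and widely between samples. Ifit1 read 3.36, 2.53, 2.97 and 1.78 in knockout samples 1 to 4, against 2.20, 2.78, 3.14 and 3.39 in wild-type samples 1 to 4. The lowest value was knockout sample 4, the other knockout values lay inside the wild-type range, and the difference was -0.22 ± 0.38 (SE; limma, adjusted p = 0.749). Ifit2 ranged from 1.77 to 3.69 in knockout and from 2.17 to 3.46 in wild-type samples. Ifit3 ranged from 4.92 to 5.95 in knockout and from 5.36 to 5.77 in wild-type samples. Without knockout sample 4 the differences of Ifit1, Ifit2 and Ifit3 were 0.08, 0.41 and 0.28.

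Mx1 and Mx2, dynamin-like GTPases that act on viral nucleoproteins, overlapped as well. Mx1 read 2.24, 1.98, 2.40 and 0.93 in knockout samples 1 to 4, against 1.57, 2.25, 2.08 and 2.40 in wild-type samples 1 to 4. Knockout sample 4 was the lowest and the next was wild-type sample 1, with a difference of -0.18 ± 0.33 (SE), and Mx2 differed by 0.02 ± 0.28 (SE). Rsad2, which encodes viperin, read 4.37, 3.33, 3.12 and 2.48 in knockout samples 1 to 4, against 2.76, 4.05, 3.27 and 3.62 in wild-type samples 1 to 4. Knockout sample 1 was the highest of all 8 samples and knockout sample 4 the lowest, with a difference of -0.10 ± 0.42 (SE). Cmpk2, the gene of a mitochondrial nucleotide kinase near Rsad2, read 1.93, 1.49, 1.74 and 0.22 in knockout samples 1 to 4, against 1.12, 1.72, 1.78 and 1.96 in wild-type samples 1 to 4, a difference of -0.30 ± 0.38 (SE). Its other probe differed by -0.79 (exact two-sided permutation p = 0.314).

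The ISG15 system tags proteins with the ubiquitin-like ISG15. Isg15 read 7.49, 7.24, 7.45 and 6.50 in knockout samples 1 to 4, against 6.84, 7.49, 7.34 and 7.63 in wild-type samples 1 to 4. Apart from knockout sample 4, the knockout values lay inside the wild-type range, and the difference was -0.15 ± 0.25 (SE; limma, adjusted p = 0.739). Usp18, which removes ISG15 and damps the receptor, read 4.06, 3.77, 3.80 and 3.04 in knockout samples 1 to 4, against 3.46, 3.95, 3.86 and 4.08 in wild-type samples 1 to 4, a difference of -0.17 ± 0.23 (SE). Trim25, the ubiquitin ligase of RIG-I, differed by -0.09 ± 0.35 (SE). Herc6, the ISG15 ligase of the mouse, differed by 0.04 ± 0.31 (SE) on its brighter probe and by -0.60 on the other.

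Of the membrane restriction factors, Ifitm1 was lower without overlap. IFITM proteins hinder the fusion of enveloped viruses with the cell. Ifitm1, at chr7:148155659-148155718 on mm9, read 6.09, 6.29, 6.09 and 6.28 in knockout samples 1 to 4, against 6.48, 6.71, 6.59 and 6.42 in wild-type samples 1 to 4. Knockout sample 4 was among the higher knockout values, and the difference of -0.36 ± 0.094 (SE; limma, adjusted p = 0.0888) was -0.39 without it. Ifitm2 read 6.28, 6.26, 6.10 and 6.16 in knockout samples 1 to 4, against 6.25, 6.46, 6.35 and 6.46 in wild-type samples 1 to 4. Its groups overlapped at wild-type sample 1, with a difference of -0.18 ± 0.081 (SE; limma, adjusted p = 0.227). Ifitm3, which limits influenza virus in the lung, read 7.66, 7.42, 7.56 and 7.24 in knockout samples 1 to 4, against 7.53, 7.53, 7.64 and 7.58 in wild-type samples 1 to 4, a difference of -0.10 ± 0.10 (SE). Ifitm6 differed by -0.16 ± 0.13 (SE). Bst2, the tetherin that holds budding virus at the membrane, read 5.90, 5.54, 6.11 and 4.93 in knockout samples 1 to 4, against 5.17, 5.46, 5.77 and 5.69 in wild-type samples 1 to 4, a difference of 0.09 ± 0.26 (SE). Knockout sample 3 was the highest and knockout sample 4 the lowest of all 8.

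Among the remaining effectors, all groups overlapped. Adar, the enzyme that edits adenosine in double-stranded RNA, read 3.25, 2.86, 3.09 and 2.51 in knockout samples 1 to 4, against 3.11, 3.21, 3.29 and 3.15 in wild-type samples 1 to 4, a difference of -0.26 ± 0.15 (SE; limma, adjusted p = 0.33). Its other probe differed by -0.28. Parp9 and Parp14, ADP-ribosyltransferases of the interferon response, differed by -0.21 ± 0.13 and -0.15 ± 0.15 (SE) in the order named. Rtp4 differed by -0.30 ± 0.18 (SE) and Ifi47, an immunity-related GTPase, by -0.24 ± 0.19 (SE). The exonuclease gene Isg20, Ifi44 and Ifi35 differed by 0.06, 0.09 and -0.05.

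Xaf1, a pro-apoptotic interferon-stimulated gene, had 1 wild-type sample unlike the others. Its brighter probe read 4.27, 3.88, 4.22 and 3.57 in knockout samples 1 to 4, against 3.09, 4.09, 4.17 and 4.33 in wild-type samples 1 to 4, a difference of 0.07 ± 0.29 (SE), which was -0.21 without wild-type sample 1. The other probe, at chr11:72127175-72127234 on mm9, read -1.58, -1.87, -1.07 and -2.19 in knockout samples 1 to 4, against 4.03, -2.28, -1.78 and -1.71 in wild-type samples 1 to 4. Wild-type sample 1 was the lowest of 8 on the brighter probe and the highest, by 5.10, on the other. The mean of both probes gave a difference of -0.59. Of the 12 genes with several probes past the background filter, 9 had all probes in the same direction and 3, Xaf1, Herc6 and Isg20, did not.

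**Figure D4:**
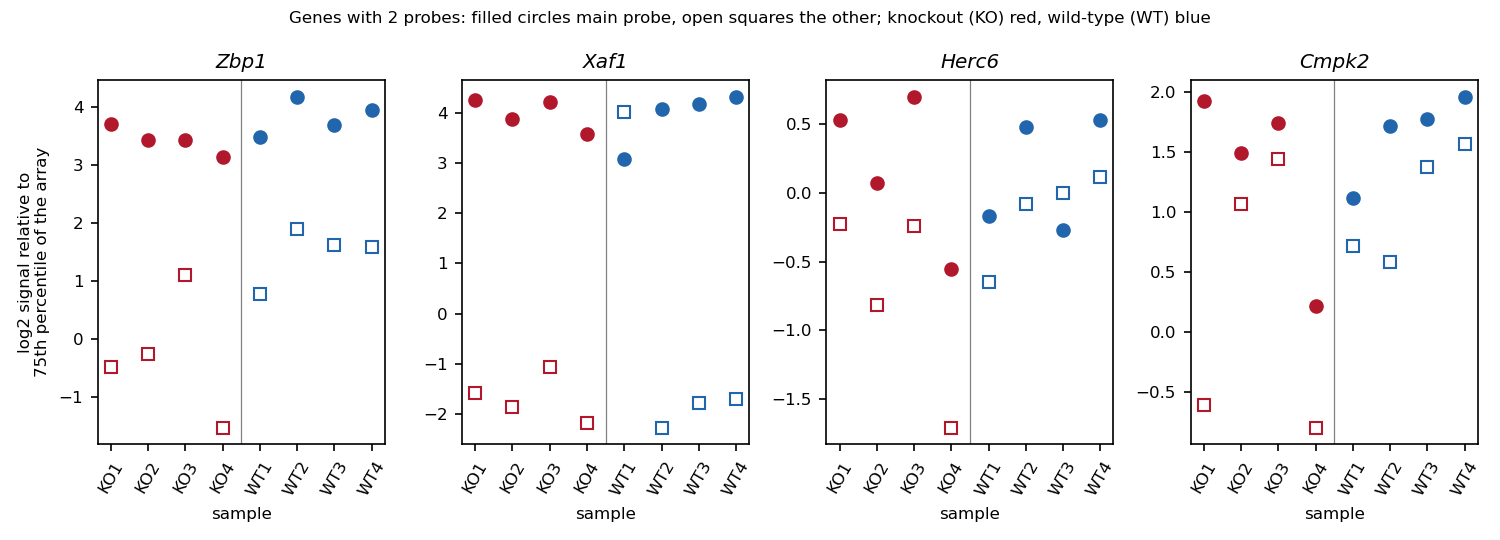
Log2 signal, with the array's 75th percentile at 0, on the vertical axis, by sample, for 4 genes with 2 probes; filled circles are the brighter probe, open squares the other, with the 4 knockout samples in red left of the line and the 4 wild-type samples in blue right of it. The second Zbp1 probe is below 0 in 3 of 4 knockout samples and in none of the wild-type samples, and the second Xaf1 probe is at 4.03 in wild-type sample 1 and below 0 in the other 7.

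Other genes of the pathway were drawn from 2 lists. Of 21 tested genes for other steps of interferon induction and signalling, 19 were lower, by a median of -0.19, where 54.4% of all genes were lower. Without knockout sample 4, 15 were lower and the median was again -0.19. In the full fit 0 passed the adjusted test, with 5 lower at an unadjusted p under 0.05 (limma), where 13.5% of all genes were. Interferon-α was measured by 3 dim genes of this list with overlapping groups: Ifna1 differed by 0.29 ± 0.23, Ifna2 by -0.21 ± 0.13 and Ifna5 by -0.21 ± 0.10 (SE). The 4 with the smallest p were Il10rb, a receptor subunit shared by interferon-λ and IL-10 (-0.42 ± 0.14), Ticam1, the adaptor TRIF (-0.20 ± 0.069), Irf2 (-0.23 ± 0.089) and the receptor kinase Jak1 (-0.22 ± 0.09), each as difference ± SE. Of 48 tested genes in a list of other interferon-stimulated genes, 39 were lower, where 54.4% of all genes were. Their median was -0.26, and -0.12 without knockout sample 4. At an unadjusted p under 0.05, 14 of them were lower and 0 higher, where 13.5% of all genes were lower and 10.1% higher, and 0 passed the adjusted test (limma). Slfn1, a Schlafen gene of T cells and myeloid cells, read 0.25, 0.50, 0.04 and -0.14 in knockout samples 1 to 4, against 1.52, 1.84, 1.31 and 1.06 in wild-type samples 1 to 4. It was 2.42-fold lower with no overlap (limma, adjusted p = 0.0569). Ifi203, of the AIM2-like family, differed by -0.81 ± 0.17, and the nuclear body genes Sp140 and Sp100 by -0.46 ± 0.11 and -0.60 ± 0.16 (SE).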

How the data were processed

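Whole-lung RNA of 8 samples was read on single-colour arrays. Agilent Feature Extraction 10.7.1.1 made the scanner files, according to the submitters' processing notes. The deposited scanner files hold an intensity for each spot that, per the file headers, was background-subtracted and detrended, with a surrogate value near background; their probe positions are on mm9. The authors' deposited table holds log2 values whose medians are equal between arrays to 2 decimals; each column correlated with the array's own log2 processed signal at 0.9991 or above, and how it was normalized is not stated in the sources used here.

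Control spots and outlier spots (154 to 245 per array) were removed and spots of a probe averaged. From log2 processed signal the 75th percentile of each array over 55660 probes was subtracted. No spot was saturated. Between 58.1% and 61.6% of the spots were well above background on knockout arrays and between 61.5% and 65.3% on wild-type arrays. The number of arrays limits the precision. A probe stayed in when it was well above background on at least 3 arrays of either group, and the brightest such probe stood for its gene. Names were updated through a RefSeq table of GRCm38.p6 by accession (26574 probes), symbol (2601) or synonym (492), and 25993 probes kept the name in the file.

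Genotypes were compared in R 4.3.3 by limma 3.58.1 with moderated variances, two-sided; p was adjusted by Benjamini-Hochberg across the 24440 genes and called under 0.05. Where a probe was not well above background in a group, the fold is a bound: that group's level on each array was taken as its own signal or the lowest signal well above background, whichever was higher. Single probes outside the fit were compared by exact permutation over all 70 divisions of the samples. On simulated data for knockout against wild-type over 24440 genes, 24% of genes changed by 0.5 (log2) were recovered, 66% at 1, 82% at 2 and 100% at 4, with 7 false calls. The changed genes were drawn from the whole array, with noise independent between genes. The interferon-stimulated genes had larger SDs (medians 0.35 in knockout and 0.26 in wild-type samples, against 0.19 and 0.17 for all genes). These shares therefore do not give the recovery for them. The labels do not say that samples of the same number belong together, and nothing states that each sample is a separate mouse, so p-values measure the spread between these samples. Deviations of same-numbered samples correlated at 0.13, 0.47, 0.0079 and -0.29, so the numbers were not treated as pairs. The genes, lists and tests were chosen with earlier results of these data known, so counts over lists are descriptions. Every one of the 46 genes could be named, with values per sample for the 12 with the smallest p and for others set by role. From each pathway list up to 4 genes with the smallest p were named, and 1 further gene that the rule names is not reported here; Slfn8, the other Oas1 genes and the Ifna genes were chosen after their values were seen. Alternatives were normexp background correction (offset 50), quantile normalization, median centring, other background filters, the mean of a gene's probes, the deposited table, a replicate block and leaving out each sample.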

Additional observations from a re-analysis of the deposited data

Results flagged for a closer look

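Dixon's gap test was applied to the 4 values of each group for each of the 45 genes, 90 groups in all, of which chance flags about 1 in 20. It marked 3. Irf3 in knockout sample 4 was 4.85, against 5.07 to 5.11 in the other knockout samples. Irf7 in wild-type sample 1 was 2.58, against 3.17 to 3.24 in the other wild-type samples. Ifi35 in wild-type sample 1 was 3.80, against 4.04 to 4.08 in the other wild-type samples. All 3 lie in the sample that was lowest of its group for most of the genes.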

How the results depend on the processing

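The number of genes among the 45 past the adjusted threshold was 0 under every alternative except no filter on dim probes, where 3 (Irf5, Oas1g and Oas2) were lower (limma, adjusted p = 0.047). Over the whole array, where 8 genes were higher and 7 lower, the counts were 228 higher and 285 lower with normexp background correction, 13 higher and 23 lower with median centring, 2710 higher and 786 lower with no filter on dim probes, and 59 higher and 68 lower with probes well above background on all 8 arrays. They were 4 higher and 5 lower with the mean of a gene's probes, and 1 to 11 higher and 0 to 12 lower when leaving out each sample in turn. With the replicate number as a block, 12 genes were higher and 34 lower over the array, 0 of the 45 passed, and not every sample correlated best with its own number. Of 719 alternative values of single genes, 659 kept direction and side of the threshold, 57 changed sign in 21 genes, and 3 passed the threshold; 24 genes never changed sign, among them the 6 OAS genes, Irf5 and Ifitm1. The sign changed for Ifnar1 (0.00765 with quantile normalization, 0.00786 in the deposited value table), Ifit2 (0.055 and 0.0559 in the same order) and Ifi35 (0.0177 and 0.0185 in the same order). Median centring gave -0.0219 for Stat2, -0.036 for Mx2 and -0.01 for Herc6, and the mean of a gene's probes -0.276 for Herc6, -0.0158 for Isg20 and -0.59 for Xaf1. Leaving out 1 sample changed the sign of the following genes, given as lowest to highest difference: Ifnar1 -0.125 to 0.0474, Irf1 -0.0168 to 0.233, Irf8 -0.139 to 0.0423, Stat2 -0.0567 to 0.154, Ifih1 -0.266 to 0.00875, Ifit1 -0.454 to 0.0757, Ifit2 -0.284 to 0.412, Ifit3 -0.0587 to 0.284, Mx1 -0.356 to 0.134, Mx2 -0.191 to 0.214, Rsad2 -0.449 to 0.182, Cmpk2 -0.494 to 0.0774, Bst2 -0.0713 to 0.325, Isg15 -0.316 to 0.0679, Usp18 -0.299 to 0.0409, Herc6 -0.126 to 0.292, Trim25 -0.329 to 0.151, Isg20 -0.0729 to 0.145, Ifi44 -0.101 to 0.332, Ifi35 -0.14 to 0.0709, Xaf1 -0.211 to 0.203. The cause was not tested. Low signal limits Oas1g, measured only in wild-type samples, and Ifnb1. With probes well above background on all 8 arrays Oas1g had no value. Median centring put the median difference of all genes at -0.08.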

Other observations

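Wild-type sample 1 differed from all other samples at several probes of chromosome 11, chosen here after their values were seen. Among 33652 probes with a position that passed the background filter, 32 lay more than 2 beyond the range of the other 7 samples in wild-type sample 1 on the log2 scale, and 9 of these were on chromosome 11, which holds 7.40% of the probes. In the other 7 samples between 4 and 22 probes lay so far apart, with between 0 and 2 on chromosome 11. The probes included the second Xaf1 probe (5.10 above the nearest sample) and that of Nlrp1b, an inflammasome sensor gene (2.83 above). Among them was also the myosin gene Myh8, at -2.67 in wild-type sample 1. The mean level of the cardiac muscle markers was lowest in that sample too, at -0.25. Slfn8, an interferon-inducible Schlafen gene in the list of other interferon-stimulated genes, read 1.21, 1.60, 1.07 and 0.62 in knockout samples 1 to 4, against -4.75, 2.33, 1.94 and 1.98 in wild-type samples 1 to 4. Its difference was 0.74 ± 1.49 (SE), although the other 3 wild-type values lay above all 4 knockout values. The reason was not tested. Ifnar2, Irf3, Irf5, Oas1g, Oas2, Oas3 and Ifitm1, the 7 genes with separate groups, are on other chromosomes.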
